A study of Mus musculus with 21 samples.

Results

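The deiodinases are 3 selenium-containing enzymes, encoded by Dio1, Dio2 and Dio3, that add or remove the activity of thyroid hormone by taking single iodine atoms off it. The members were chosen by gene symbol, and all 3 were found among the 45777 genes of each deposited table. The study measured thyroid glands of C57BL/6J mice by RNA sequencing in 7 groups of 3 libraries. The Empty mice were injected with the pLIVE-Empty vector. The TSH mice received pLIVE-TSHB and pLIVE-CGA together and so overexpressed thyroid stimulating hormone (TSH). pLIVE is a plasmid built for expression in the liver, so the hormone is made outside the gland, and the subunit transcripts in the thyroid do not check the group labels. The TSH-MMI mice carried the TSH vectors and were also treated with thiamazole (MMI, methimazole), a drug that blocks thyroid hormone synthesis. The Empty-MMI mice carried the empty vector and received thiamazole. Empty, TSH and TSH-MMI were sampled at 1 week and at 4 weeks, and Empty-MMI at 4 weeks alone. Every sample, the Empty mice included, also carries a label for induction of hyperthyroidism. No dose, age or sex is given in the labels, and nothing in them says whether the 3 libraries of a group came from separate mice, so p-values measure the spread between these libraries, which may be technical.

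In the iodothyronine pathway, type 1 deiodinase (Dio1) can work on the outer ring of thyroxine, giving the active hormone triiodothyronine, and on the inner ring, which inactivates it. Type 2 deiodinase (Dio2) works on the outer ring and makes triiodothyronine inside cells. Type 3 deiodinase (Dio3) works on the inner ring and inactivates both hormones. In the mouse, the thyroid gland and the liver are known for high Dio1, brown fat, pituitary and glial cells for Dio2, and placenta and fetal tissues for Dio3. TSH acts through its receptor on follicular cells and raises cyclic AMP (cAMP), and Dio2 is a well known cAMP-responsive gene in brown fat.

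All members carry a TGA codon that is read as selenocysteine rather than as a stop, and this codon lies at the active site. The windows around it show what the members share, with the TGA codon in capitals, read from the GENCODE vM21 transcripts on GRCm38. The codon is number 126 of 257 in Dio1, 130 of 266 in Dio2 and 170 of 304 in Dio3.
Dio1 active site: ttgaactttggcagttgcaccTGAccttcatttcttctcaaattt
Dio2 active site: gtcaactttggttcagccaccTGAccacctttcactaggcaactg
Dio3 active site: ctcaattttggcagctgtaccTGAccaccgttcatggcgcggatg
Over these 45 bases, Dio2 and Dio3 were identical at 62.2% of positions, Dio1 and Dio3 at 57.8%, and Dio1 and Dio2 at 55.6%. Dio2 alone among these coding sequences held another in-frame TGA, at codon 263, close to its end.
Dio2 second TGA: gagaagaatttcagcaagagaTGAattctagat

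The promoters are shown because the groups differ in TSH, whose receptor signals through cAMP. Each is the 100 bases before the start site in RefSeq, on GRCm38.p6, read along the gene's strand. The stretch is chr4:107307169-107307268 (minus strand) for Dio1, chr12:90739039-90739138 (minus strand) for Dio2 and chr12:110279130-110279229 (plus strand) for Dio3. Capitals mark the motifs found.
Dio1 promoter: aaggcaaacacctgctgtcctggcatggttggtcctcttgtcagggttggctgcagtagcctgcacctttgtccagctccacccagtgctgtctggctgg
Dio2 promoter: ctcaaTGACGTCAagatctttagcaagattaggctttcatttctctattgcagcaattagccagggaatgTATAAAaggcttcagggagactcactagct
Dio3 promoter: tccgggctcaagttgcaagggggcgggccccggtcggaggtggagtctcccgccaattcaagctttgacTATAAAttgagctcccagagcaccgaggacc
In a search of 250 bases upstream on both strands, the cAMP response element TGACGTCA was found in Dio2 alone of the members, from 95 to 88 bases before the start. It is present in 1.55% of 32851 RefSeq promoters of the same length. Its shorter core TGACG, which overlaps it on either strand, is present in 17.8%. The TATA box letters TATAAA stand 30 to 25 bases before the start in Dio2 and 31 to 26 in Dio3, and in 12.4% of promoters. The nuclear receptor core AGGTCA was found in none of the 3 windows and is present in 14% of promoters. A match of letters describes the sequence and does not show that a factor binds there. GENCODE places the start of Dio3 upstream of the window shown, at 110279068, and that of Dio2 downstream of its window, at 90738438.

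In the annotation of GRCm38, Dio1 lies on the minus strand of chromosome 4, from 107291465 to 107307169, with 4 exons in its coding transcript. Dio2 lies on the minus strand of chromosome 12, from 90724552 to 90738438, with 2 exons. Dio3 is a gene of 1 exon on the plus strand of chromosome 12, from 110279068 to 110281097, at one end of an imprinted region named after Dlk1 and Dio3.

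Libraries held 32244842 to 51886245 counts each, and within a library Dio1 was measured on 12557 to 32171 counts, Dio2 on 103 to 969 and Dio3 on 2 to 42. The 8 markers of thyroid follicular cells, such as thyroglobulin (Tg), were detected in every library. Some libraries stood apart in transcripts of neighbouring tissue. The 10 skeletal muscle markers summed to between 3340 and 10868 CPM (counts scaled to library depth) in the Empty libraries of 4 weeks and to between 23.0 and 1280 in those of 1 week. Markers of immature thymocytes summed to 251 CPM in Empty replicate 3 and 34.0 CPM in TSH-MMI replicate 2 at 1 week, against 10.4 CPM at most elsewhere. At 4 weeks the 4 parathyroid markers summed to 121 CPM in Empty replicate 3 and 32.8 CPM in TSH replicate 1, against 1327 CPM or more in the other libraries of that week, and the same libraries were the lowest in C cell markers (1302 and 579 CPM, against 3518 CPM or more).

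Dio1 was by far the most abundant deiodinase transcript in every library. Levels between genes are compared in FPKM, which scales fragments by library depth and by transcript length. Dio1 ranged from 188 to 462 FPKM over the 21 libraries, Dio2 from 0.379 to 2.83 FPKM and Dio3 from 0.0194 to 0.566 FPKM. Ranked by FPKM among all genes of a library, Dio1 stood between place 82 and place 264, Dio2 between 9741 and 13990, and Dio3 between 13313 and 19568. The highest group mean exceeded the lowest by 2.04-fold for Dio1, 4.16-fold for Dio2 and 13.4-fold for Dio3, so the member with the lowest level spanned the widest range. The lowest Dio3 mean, that of Empty at 4 weeks, rests on 2 to 4 counts a library, so its ratio is imprecise.

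**Figure D1:**
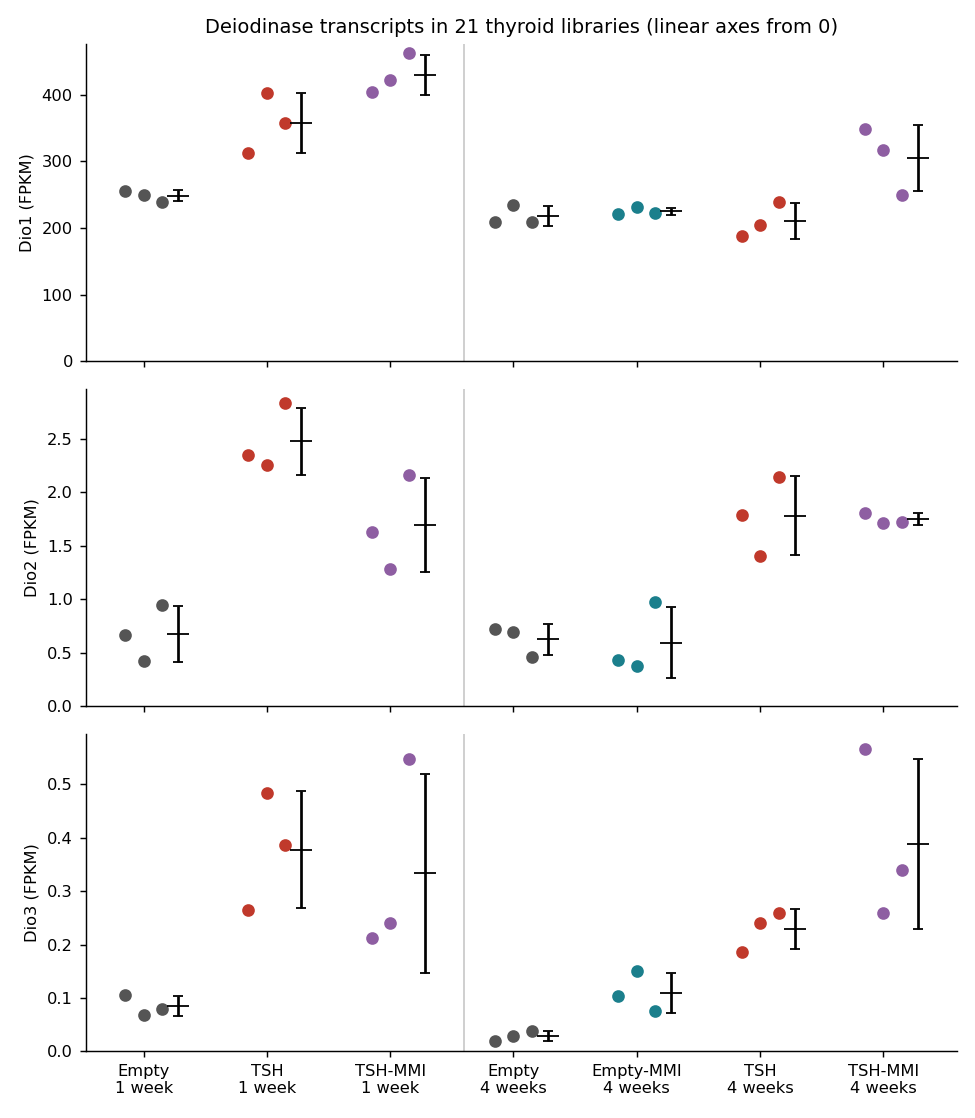
FPKM of Dio1, Dio2 and Dio3 (vertical axes, linear, from 0) in each of the 21 libraries by group; points are libraries and the bar beside them is the mean with its SD (n = 3). Dio2 lies between 1.29 and 2.83 FPKM in all TSH and TSH-MMI libraries and below 1 FPKM in all Empty and Empty-MMI libraries.

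At 1 week of TSH overexpression, the transcripts of all 3 deiodinases rose. The rise was 1.39-fold for Dio1, 3.54-fold for Dio2 and 4.14-fold for Dio3 against the Empty vector. In this comparison edgeR's quasi-likelihood test with Benjamini-Hochberg adjustment called 14.8% of the 16956 genes tested higher. Dio1, the enzyme that gives and clears triiodothyronine, stood at 256, 249.7 and 239 FPKM in the Empty libraries and at 312, 403 and 358 FPKM in the TSH libraries. The groups did not overlap, and the log2 fold change was 0.48 (SE 0.09, 95% interval 0.28 to 0.67, edgeR adjusted p = 0.00254).

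Dio2, the activating enzyme, stood at 0.664, 0.426 and 0.949 FPKM in the Empty libraries and at 2.34, 2.25 and 2.83 FPKM in the TSH libraries. Every TSH library was above every Empty library, on counts of 618 to 969 against 103 to 246. The log2 fold change was 1.82 (SE 0.27, 95% interval 1.23 to 2.42, edgeR adjusted p = 0.00122). In a bulk library, a change in the number of cells that make a transcript and a change in transcript per cell cannot be told apart.

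Dio3, the inactivating enzyme, gave 9, 5 and 6 counts in the Empty libraries and 21, 39 and 39 counts in the TSH libraries. In FPKM these were 0.106, 0.0688 and 0.0797 against 0.265, 0.483 and 0.386. The groups did not overlap (log2 fold change 2.05, SE 0.49, 95% interval 0.99 to 3.11, edgeR adjusted p = 0.00992). Summed over the libraries the counts were 99 against 20, a ratio of 4.19 after scaling with a counting interval of 2.57 to 7.16 that covers counting error only. Dio3 passed the filter on low counts through the TSH and TSH-MMI libraries, since 0 of the 3 Empty libraries reached its minimum, so its passing the filter supports nothing.

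Thiamazole given with TSH for 1 week left all 3 deiodinases above the same Empty libraries. The comparison shares its controls with the one above, and edgeR called 13.6% of genes higher. Dio1 stood at 404, 423 and 462 FPKM, which is above every Empty library of that week (log2 fold change against Empty 0.68, SE 0.09, edgeR adjusted p = 0.000426). These values are also above every TSH library in FPKM, but not in CPM. Dio2 stood at 1.63, 1.29 and 2.16 FPKM, which lies between the Empty and the TSH libraries without touching either (log2 fold change against Empty 1.21, SE 0.26, edgeR adjusted p = 0.0114). Dio3 stood at 0.212, 0.241 and 0.547 FPKM, with 1 of the 3 libraries well above the others. Its log2 fold change against Empty was 1.81 (SE 0.49, edgeR adjusted p = 0.0213). This call for Dio3 was lost without Empty replicate 2 (adjusted p = 0.0636), without Empty replicate 3 (0.0568) and without TSH-MMI replicate 3 (0.112, log2 fold change 1.30), and also without both libraries that held thymocyte transcripts (1.90, adjusted p = 0.0547).

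Set directly against TSH alone at 1 week, TSH-MMI did not pass the test for any member, in a comparison in which edgeR called 0.0177% of genes. In FPKM, Dio1 was higher in each of the 3 TSH-MMI libraries than in any TSH library, by a narrow margin (404.2 against 402.8). In CPM the groups overlapped, with TSH replicate 2 at 704.6 and TSH-MMI replicates 1 and 2 at 698.9 and 703.8. The log2 fold change of Dio1 was 0.20 (95% interval 0.01 to 0.40, unadjusted p = 0.0417 and adjusted p = 0.547 by edgeR). Dio2 was lower in each TSH-MMI library than in any TSH library (log2 fold change -0.62, 95% interval -1.19 to -0.04, unadjusted p = 0.0374 and adjusted p = 0.543 by edgeR). For Dio3 the groups overlapped and the interval of the log2 difference ran from -1.18 to 0.71. The separation of Dio2, and of Dio1 in FPKM, is a description, since its share among all genes was not counted.

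At 4 weeks of TSH overexpression, Dio2 and Dio3 rose while Dio1 stood near its Empty level. Dio2 was 3.05-fold and Dio3 7.88-fold higher than in Empty, in a comparison where edgeR called 8.52% of the 17355 genes tested higher. Dio2 stood at 0.725, 0.692 and 0.460 FPKM in Empty and at 1.79, 1.40 and 2.14 FPKM in TSH (log2 fold change 1.61, SE 0.27, 95% interval 1.02 to 2.20, edgeR adjusted p = 0.00227). Dio3 gave 2, 3 and 4 counts in Empty and 14, 26 and 28 counts in TSH, so neither member's groups overlapped. At 4 weeks too Dio3 passed the filter on low counts without any Empty library reaching its minimum, through Empty-MMI, TSH and TSH-MMI libraries, so its passing supports nothing in the comparisons with Empty. The fitted log2 fold change of Dio3 was 2.98 (SE 0.53, edgeR adjusted p = 0.00242), and the ratio of the summed counts was 7.76 with a counting interval of 3.86 to 17.7.

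Dio1 at 4 weeks stood at 209, 235 and 209 FPKM in Empty and at 188, 205 and 239 FPKM in TSH. The groups overlapped, and the log2 fold change was 0.053 (SE 0.10, 95% interval -0.17 to 0.27, edgeR adjusted p = 0.773). The rise of 0.48 seen at 1 week lies outside that interval. The difference between the weeks was tested on its own, in a fit of all 21 libraries in which edgeR called 1.35% of 17715 genes for it. For Dio1 the TSH effect at 4 weeks minus that at 1 week was -0.42 on the log2 scale (SE 0.14, 95% interval -0.72 to -0.13, unadjusted p = 0.00682 and adjusted p = 0.137 by edgeR), so the difference did not pass the threshold. For Dio2 the same difference was -0.22 (95% interval -1.06 to 0.63) and for Dio3 it was 0.92 (95% interval -0.53 to 2.37). The tables of the weeks were deposited apart, so a difference between weeks also holds any difference between those tables.

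TSH-MMI at 4 weeks was the group in which all 3 members again stood above Empty, where edgeR called 8.77% of genes higher. Dio1 stood at 349, 316 and 250.2 FPKM, each above the Empty libraries (log2 fold change 0.42, SE 0.10, 95% interval 0.20 to 0.64, edgeR adjusted p = 0.0141). Dio2 stood at 1.81, 1.71 and 1.72 FPKM, the narrowest spread of any group for that gene (log2 fold change 1.43, SE 0.27, edgeR adjusted p = 0.00396). Dio3 gave 39, 19 and 36 counts against 2, 3 and 4 in Empty (log2 fold change 3.53, SE 0.52, edgeR adjusted p = 0.000671). The ratio of the summed counts for Dio3 was 12.4 with a counting interval of 6.29 to 28.1. The Dio1 call was lost without TSH-MMI replicate 1 (adjusted p = 0.0711) or replicate 2 (0.0516). With the skeletal muscle markers as a covariate, which are high in the Empty libraries, the calls for Dio1 (log2 fold change 0.40, adjusted p = 0.238) and Dio2 (1.21, adjusted p = 0.141) were lost and that for Dio3 was not.

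Against TSH alone at 4 weeks, TSH-MMI did not pass the test for any member, in a comparison in which edgeR called 0.0173% of genes. Dio1 was higher in every TSH-MMI library than in any TSH library (log2 fold change 0.37, 95% interval 0.15 to 0.59, unadjusted p = 0.00313 and adjusted p = 0.369 by edgeR). By p it held place 144 among the 17355 genes tested. For Dio2 the groups overlapped (log2 fold change -0.18, 95% interval -0.75 to 0.39). For Dio3 the lowest TSH-MMI library, at 0.259 FPKM, was barely above the highest TSH library, at 0.258 FPKM (log2 fold change 0.55, 95% interval -0.36 to 1.46). The separation of Dio1 and Dio3 is likewise a description, without a share of all genes beside it.

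Thiamazole without TSH moved no deiodinase past the threshold at 4 weeks. Between Empty-MMI and Empty edgeR called 1.64% of genes. Dio1 stood at 221, 231 and 222 FPKM, inside the range of Empty (log2 fold change 0.11, 95% interval -0.12 to 0.33, edgeR adjusted p = 0.707). Dio2 stood at 0.434, 0.379 and 0.972 FPKM, a range that encloses that of Empty (log2 fold change -0.03, 95% interval -0.63 to 0.56, edgeR adjusted p = 0.973). For Dio3 the libraries separated although the test was not passed. It gave 10, 17 and 7 counts against 2, 3 and 4 (log2 fold change 1.97, SE 0.55, 95% interval 0.78 to 3.15, unadjusted p = 0.00318 and adjusted p = 0.0959 by edgeR). The ratio of the summed counts was 4.02 with a counting interval of 1.89 to 9.54. How many of all genes separated between Empty-MMI and Empty was not counted, so the separation of Dio3 is a description.

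With thiamazole in both groups, TSH-MMI against Empty-MMI, Dio2 was the member that passed, against 3.03% of genes called higher. Its log2 fold change was 1.46 (SE 0.27, 95% interval 0.87 to 2.05, edgeR adjusted p = 0.0109), with no overlap between the groups. This call was lost without Empty-MMI replicate 1 (adjusted p = 0.0538). For Dio1 and Dio3 the libraries separated as well, with log2 fold changes of 0.32 (95% interval 0.09 to 0.54, edgeR adjusted p = 0.113) and 1.56 (95% interval 0.61 to 2.52, edgeR adjusted p = 0.0682). DESeq2 put both under the threshold, at adjusted p = 0.0357 and 0.0458. How many of all genes separated between TSH-MMI and Empty-MMI was not counted, so the separation of the members is a description. TSH against Empty-MMI gave 1.64 for Dio2 (SE 0.27, edgeR adjusted p = 0.00538), where 3.84% of genes were called higher, -0.052 for Dio1 (95% interval -0.27 to 0.17) and 1.01 for Dio3 (95% interval 0.04 to 1.98, edgeR adjusted p = 0.238). The interaction of TSH and thiamazole did not pass for any member, with log2 values of 0.26 for Dio1 (95% interval -0.05 to 0.58), -0.15 for Dio2 (95% interval -0.97 to 0.67) and -1.42 for Dio3 (95% interval -2.90 to 0.07). By edgeR 0% of genes passed for that term, and 1754 had an unadjusted p under 0.05. The effect of TSH-MMI at 4 weeks minus that at 1 week did not pass for a member either, where edgeR called 0.0169% of genes. It was -0.26 on the log2 scale for Dio1 (95% interval -0.55 to 0.037), 0.22 for Dio2 (95% interval -0.63 to 1.07) and 1.71 for Dio3 (95% interval 0.25 to 3.18, unadjusted p = 0.0242 and adjusted p = 0.48 by edgeR). The effect of thiamazole under TSH differed between the weeks by 0.17 for Dio1, 0.44 for Dio2 and 0.79 for Dio3, each with an edgeR adjusted p of 1.00. For that term 0% of genes passed by edgeR, and 792 had an unadjusted p under 0.05.

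**Figure D2:**
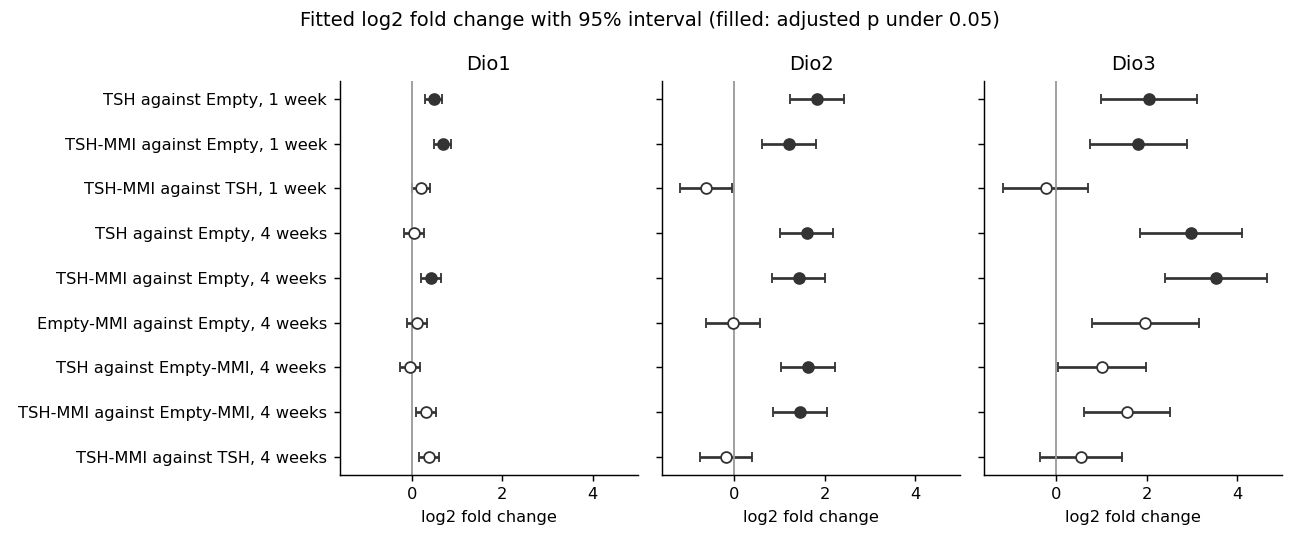
Fitted log2 fold change (horizontal axes) of Dio1, Dio2 and Dio3 in 9 comparisons, with 95% intervals; filled points have an edgeR adjusted p under 0.05. Dio2 and Dio3 are filled in the 4 comparisons of TSH or TSH-MMI with Empty, and Dio1 in all of these but TSH against Empty at 4 weeks (0.053).

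The order of the group means differed between the members. Dio1 ran from TSH-MMI at 1 week (430 ± 29.7 FPKM, SD, n = 3) through TSH at 1 week (358 ± 45.2) and TSH-MMI at 4 weeks (305 ± 50.1) to Empty at 1 week (248 ± 8.46), Empty-MMI (225 ± 5.51), Empty at 4 weeks (217 ± 15.1) and TSH at 4 weeks (211 ± 26.4). In FPKM the libraries of neighbours in that order overlapped except at the top step and between Empty at 1 week and Empty-MMI. In CPM the libraries overlapped at these steps too. Dio2 ran from TSH at 1 week (2.48 ± 0.313 FPKM) through TSH at 4 weeks (1.78 ± 0.369), TSH-MMI at 4 weeks (1.75 ± 0.0523) and TSH-MMI at 1 week (1.69 ± 0.439) to Empty at 1 week (0.680 ± 0.262), Empty at 4 weeks (0.626 ± 0.144) and Empty-MMI (0.595 ± 0.328). Here the first step and the step down to Empty at 1 week were free of overlap. Dio3 ran from TSH-MMI at 4 weeks (0.389 ± 0.159 FPKM), TSH at 1 week (0.378 ± 0.109), TSH-MMI at 1 week (0.333 ± 0.186) and TSH at 4 weeks (0.228 ± 0.0374) to Empty-MMI (0.11 ± 0.0376), Empty at 1 week (0.0847 ± 0.0189) and Empty at 4 weeks (0.0291 ± 0.00978). Its steps without overlap were that down to Empty-MMI and the last one. In CPM the order of Dio1 changed below the leading 3 groups, while the orders of Dio2 and Dio3 were as in FPKM.

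The balance between Dio1 and Dio2 moved with TSH. Per unit of Dio2, the Dio1 level was 252 to 586 in the Empty libraries of 1 week and 126 to 179 in the TSH libraries. At 4 weeks the Empty libraries lay at 288 to 453, Empty-MMI at 228 to 609, TSH at 105 to 146 and TSH-MMI at 145 to 193. TSH libraries therefore lay below Empty libraries at either week. TSH-MMI overlapped Empty at 1 week, where it ran from 214 to 329, and lay below it at 4 weeks, with its lowest library just under the highest TSH library.

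The change of Dio2 beyond that of Dio1 was tested on log2(FPKM + 0.1) within each library. It was 1.26 for TSH against Empty at 1 week, 1.43 at 4 weeks, 0.44 for TSH-MMI against Empty at 1 week and 0.89 at 4 weeks. A two-sided exact permutation test of 3 against 3 libraries gave p = 0.1 for each of these but TSH-MMI at 1 week (p = 0.3). That is the smallest p it can give, so this design cannot pass 0.05, and over the 9 comparisons made the adjusted value was 0.129 for those at 0.1. TSH-MMI against TSH gave -0.82 at 1 week and -0.53 at 4 weeks, each at p = 0.1 in the exact test. These values depend on the scale. With a pseudocount of 1 the changes against Empty fell to 0.54 for TSH at 1 week (p = 0.2, exact test, with overlapping groups), 0.82 for TSH at 4 weeks (p = 0.1), -0.11 for TSH-MMI at 1 week (p = 0.6) and 0.29 for TSH-MMI at 4 weeks (p = 0.2). On log2 CPM, TSH-MMI and TSH at 4 weeks overlapped (p = 0.2, exact test).

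**Figure D3:**
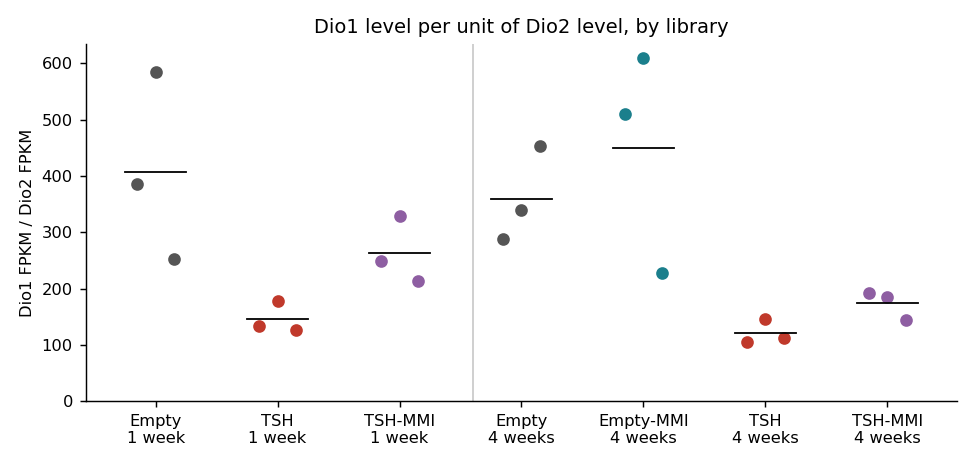
Dio1 FPKM divided by Dio2 FPKM (vertical axis, linear, from 0) in each library by group; lines are group means. TSH libraries lie between 105 and 179, and Empty and Empty-MMI libraries between 228 and 609.

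Transcripts of other cell types moved with Dio2 and Dio3, and 14.8% of all genes were called higher and 9.34% lower with TSH at 1 week. With TSH-MMI at 1 week the shares were 13.6% and 7.97%. At 4 weeks they were 8.52% and 5.61% with TSH, and 8.77% and 5.97% with TSH-MMI. These shares apply to all marker counts below. All 8 macrophage markers, such as Csf1r and Adgre1, rose by edgeR in TSH and in TSH-MMI against Empty at both weeks. Their summed level at 1 week was 245 to 283 CPM in Empty libraries, 551 to 633 CPM with TSH and 476 to 544 CPM with TSH-MMI. At 4 weeks the Empty libraries held 214 to 250.3 CPM, Empty-MMI 244 to 261 CPM, TSH 471 to 544 CPM and TSH-MMI 423 to 508 CPM. As for Dio2, the libraries with TSH vectors stood apart from all those without. That was not particular to this pair. It held for Dio3 (0.186 FPKM or more against 0.150 or less). It also held for the sums of the endothelial markers (1099 CPM or more against 1027 or less) and the cartilage markers (18.3 CPM or more against 15.7 or less).

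Of the 8 endothelial markers, such as Pecam1 and Kdr, 7 rose with TSH at each week, while Cldn5 fell at 1 week (-0.50, edgeR adjusted p = 0.0282), and 6 rose with TSH-MMI at 1 week and 7 at 4 weeks. Their sum at 1 week was 811 to 1027 CPM in Empty libraries, 1388 to 1535 CPM with TSH and 1225 to 1377 CPM with TSH-MMI. At 4 weeks the Empty libraries held 714 to 742 CPM, Empty-MMI 767 to 892 CPM, TSH 1099 to 1149 CPM and TSH-MMI 1108 to 1188 CPM. No macrophage or endothelial marker was at 0 in any library.

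Fibroblast and cartilage markers were also higher with TSH, and C cell markers lower. Of 8 fibroblast markers, Col1a1, Col1a2, Col3a1 and Fbn1 rose with TSH at both weeks and Dcn fell at 4 weeks. Their sum was 779 to 976 CPM in Empty and 2304 to 2627 CPM in TSH at 1 week, and 780 to 867 CPM and 897 to 1122 CPM at 4 weeks. Of 5 cartilage markers tested, 4 rose with TSH at 1 week, and 3 rose and 1 fell at 4 weeks, on sums of 9.44 to 11.1 CPM in Empty and 36.0 to 44.1 CPM in TSH at 1 week. Of 7 C cell markers tested, 5 fell with TSH at each week and Ret rose at 1 week, with a sum at 1 week of 4572 to 10115 CPM in Empty and 983 to 4110 CPM in TSH. Without both libraries of 4 weeks that were low in parathyroid and C cell markers, an alternative chosen after seeing the data, Dio2 and Dio3 were called in TSH against Empty (log2 fold changes 1.43 and 3.43, edgeR adjusted p = 0.0274 and 0.0108). That run concerns those libraries alone and does not bear on the macrophage, endothelial, fibroblast or cartilage markers. The part of all these cell types in the deiodinase results was not tested. Brown fat, where Dio2 is active, also left transcripts in every library, its marker Ucp1 included, with a marker sum of 130 to 166 CPM in Empty and 114 to 152 CPM in TSH at 1 week, and of 149 to 291 CPM in Empty and 122 to 159 CPM in TSH at 4 weeks. None of its 8 markers rose with TSH at either week, and 1 fell at 1 week and 2 at 4 weeks.

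**Figure D4:**
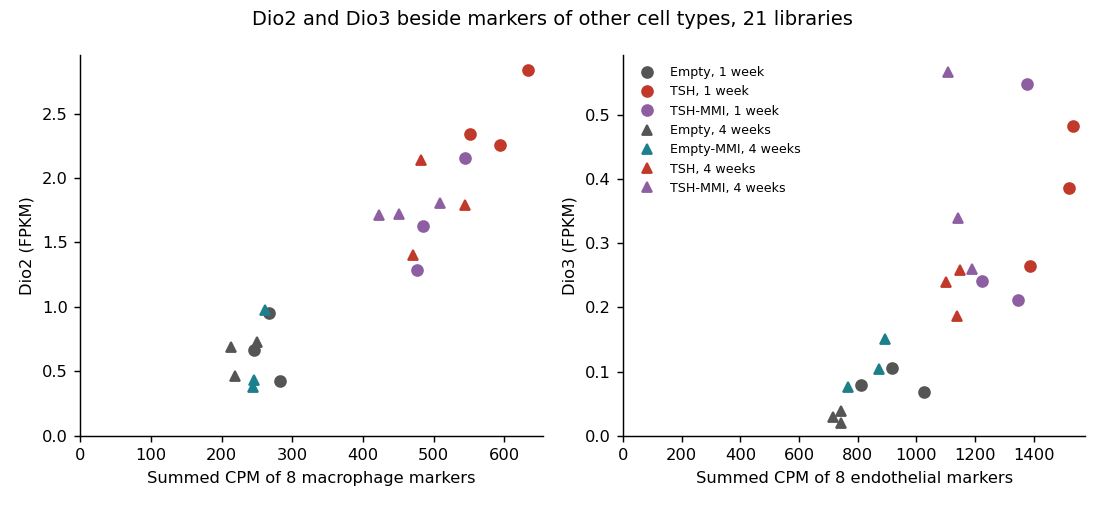
Left, Dio2 FPKM against the summed CPM of 8 macrophage markers; right, Dio3 FPKM against the summed CPM of 8 endothelial markers, over the 21 libraries (circles 1 week, triangles 4 weeks). TSH and TSH-MMI libraries lie at 423 CPM of macrophage markers or more, and the others at 283 CPM or less.

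The genes whose log2 CPM followed a member most closely over the 21 libraries were named from 13245 genes by Pearson's r, given as a description, since all points share depth and group structure. For Dio1 they were Atp1b1, a subunit of the sodium pump (r = 0.95), Lrrc42, Dap, Ceacam1 and Smpdl3a (0.94 each). Within groups, on deviations from the group means, these had r of 0.61 to 0.73. For Dio2 they were C1qb, a complement gene of macrophages, Lpcat2 and Aif1 (0.94 each), and Fcer1g and Gbp3 (0.93 each). Within groups r ran from 0.52 for Fcer1g to 0.83 for Lpcat2, with 0.58 for C1qb. For Dio3 they were Sh3bgrl2 (0.93), Flt1, a receptor for vascular endothelial growth factor, and Adgrl4, an endothelial receptor (0.92 each), Ces2g and Slc15a3 (0.91 each). Within groups r fell to between 0.49 for Adgrl4 and 0.62 for Sh3bgrl2, with 0.56 for Flt1. Among the members themselves, r was 0.50 for Dio1 and Dio2, 0.69 for Dio1 and Dio3 and 0.75 for Dio2 and Dio3, and within groups -0.23, 0.61 and -0.17.

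Around Dio1 in the genome, Lrrc42 moved as Dio1 did. Within 200 kb of the start of Dio1, 13 other genes are annotated, 9 are in the table and 7 were tested. Of the 7, 2 were called higher at 1 week with TSH and 2 with TSH-MMI, beside 14.8% and 13.6% of all genes. At 4 weeks 2 were called higher with TSH-MMI, beside 8.77%, and none with TSH, beside 8.52%. Lrrc42, on the same strand with its start at -53.6 kb counted along the plus strand, rose in TSH at 1 week (log2 fold change 0.59, SE 0.09, edgeR adjusted p = 0.000712), in TSH-MMI at 1 week (0.65, SE 0.09, adjusted p = 0.000557) and in TSH-MMI at 4 weeks (0.47, SE 0.09, adjusted p = 0.00326). In TSH at 4 weeks, where Dio1 did not pass either, Lrrc42 had 0.17 (SE 0.09, edgeR adjusted p = 0.21). Yipf1, which starts at 7.19 kb, rose at 1 week in TSH (0.22, edgeR adjusted p = 0.0248) and in TSH-MMI (0.26, edgeR adjusted p = 0.0126). Hspb11, whose start faces that of Lrrc42, rose in TSH-MMI at 4 weeks (0.48, edgeR adjusted p = 0.0261). The call for Lrrc42 in TSH-MMI at 4 weeks was lost with the skeletal muscle covariate, and that for Yipf1 with TSH without Empty or TSH replicate 2 or 3, and that for Hspb11 without Empty replicate 2 or 3 or TSH-MMI replicate 1. None of the 2 neighbours of Dio2 in the table passed the filter.

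**Figure D5:**
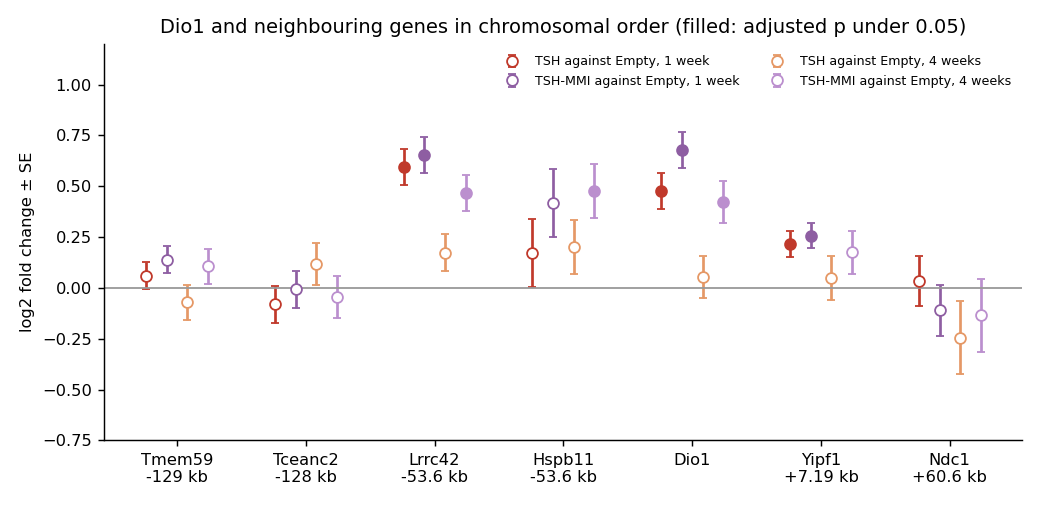
Log2 fold change with SE (vertical axis) of Dio1 and of 6 neighbouring genes in chromosomal order, with the distance of each start from that of Dio1, in 4 comparisons with Empty; Glis1, a neighbour with few counts, is not drawn. Filled points have an edgeR adjusted p under 0.05, and Lrrc42 is filled in the same 3 comparisons as Dio1.

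Beside Dio3, the divergent noncoding gene Dio3os starts at -0.896 kb on the other strand, and the annotations do not overlap. At 1 week Dio3os gave 5, 6 and 0 counts with the empty vector, 10, 22 and 14 counts with TSH, and 18, 23 and 27 counts with TSH-MMI. It rose in TSH-MMI (log2 fold change 2.37, SE 0.74, edgeR adjusted p = 0.0394) and had 1.79 in TSH (SE 0.75, edgeR adjusted p = 0.104). At 4 weeks the Empty libraries gave 7, 4 and 0 counts, Empty-MMI 0, 7 and 14, TSH 0, 9 and 25, and TSH-MMI 5, 4 and 12, so its groups overlapped where those of Dio3 did not.

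At the other end of the imprinted region, Dlk1, a delta-like membrane protein, followed Dio3 at 1 week and not at 4 weeks. At 1 week Dlk1 gave 9, 8 and 6 counts with the empty vector, 43, 30 and 63 counts with TSH, and 38, 43 and 27 counts with TSH-MMI. It rose with TSH (log2 fold change 2.28, SE 0.38, edgeR adjusted p = 0.00131) and with TSH-MMI (2.0, SE 0.38, edgeR adjusted p = 0.0038). At 4 weeks the Empty libraries gave 11, 14 and 10 counts, Empty-MMI 7, 20 and 13, TSH 0, 0 and 8, and TSH-MMI 0, 4 and 3. The libraries with TSH vectors were then below those of Empty, but the test did not pass (edgeR adjusted p = 0.192 for TSH and 0.196 for TSH-MMI). The change of the TSH effect on Dlk1 between the weeks passed at edgeR adjusted p = 0.043, a call lost without any 1 of the 12 libraries but TSH replicate 3 of 4 weeks. Of the 6 genes of the region other than Dio3 that were tested, 1 rose with TSH at 1 week, where 14.8% of all genes did, and 3 with TSH-MMI, where 13.6% did, the latter including the noncoding RNA Rian (0.63, SE 0.19, edgeR adjusted p = 0.037). At 4 weeks Dio3 was the member that rose in either comparison, beside 8.52% of all genes with TSH and 8.77% with TSH-MMI. Begain fell with TSH (-0.96, SE 0.30, edgeR adjusted p = 0.0493), where 5.61% of all genes did. The Dlk1 calls at 1 week held without any 1 library, while that of Dio3os was lost without any 1 library but Empty replicate 2, that of Rian without replicate 1 or 3 of Empty or TSH-MMI, and that of Begain without any 1 library. Ppp2r5c, a phosphatase subunit gene that starts at 168 kb from Dio3, was called at 1 week with TSH (0.17, edgeR adjusted p = 0.0436) and TSH-MMI (0.18, edgeR adjusted p = 0.0372), and either call was lost when any 1 library was left out.

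Genes that work with the deiodinases were described by list. Iyd, which recovers iodide from iodotyrosines, rose at 4 weeks with TSH (log2 fold change 0.35, SE 0.10, edgeR adjusted p = 0.0313) and with TSH-MMI (0.36, SE 0.10, edgeR adjusted p = 0.023), the former lost without any 1 library but Empty replicate 3 and the latter without Empty replicate 2 or TSH-MMI replicate 1 or 2. Of 13 genes for making and inserting selenocysteine, 1 rose and 2 fell with TSH at 1 week, with a median log2 fold change of -0.063 beside -0.0047 for all genes tested, of which 14.8% rose and 9.34% fell. Sephs2, which makes the selenium donor, rose (0.31, SE 0.08, edgeR adjusted p = 0.014). Rpl30, a ribosomal protein that also binds selenocysteine insertion elements, fell (-0.57, SE 0.07, edgeR adjusted p = 0.000183), as did Eefsec, the dedicated elongation factor (-0.33, SE 0.11, edgeR adjusted p = 0.0479). The Sephs2 call was lost without Empty replicate 2 and the Eefsec call without any 1 of the 6 but Empty replicate 2, while that of Rpl30 held. With TSH-MMI at 1 week, against the same Empty libraries, Rpl30 had -0.43, Eefsec -0.40 and Sephs2 0.25 (edgeR adjusted p = 0.00138, 0.0225 and 0.0457). Here too Rpl30 held, while Eefsec was lost without Empty replicate 3 or any TSH-MMI library, and Sephs2 without any 1 library but Empty replicate 3. With TSH-MMI at 4 weeks Rpl30 fell (-0.48, edgeR adjusted p = 0.041), where 5.97% of all genes fell, a call lost without Empty replicate 1 or any TSH-MMI library. With TSH at 4 weeks none of the 13 passed by edgeR, beside 8.52% of all genes higher and 5.61% lower, while 2 of the 13 had an unadjusted p under 0.05.

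Type 2 deiodinase protein is removed by ubiquitination. Of 10 tested genes for that handling, none passed with TSH at 1 week by edgeR, beside 14.8% of all genes higher and 9.34% lower. Of the 10, 2 had an unadjusted p under 0.05. The smallest p there was that of Ube2g2, a ubiquitin-conjugating enzyme (0.18, SE 0.07, edgeR adjusted p = 0.0964). With TSH-MMI at 1 week Ube2g2 (0.24, edgeR adjusted p = 0.0367) and Eloc (0.26, edgeR adjusted p = 0.0258) rose, 2 of the 10 beside 13.6% of all genes. With TSH-MMI at 4 weeks Usp20, which removes ubiquitin, rose (0.36, edgeR adjusted p = 0.0281), 1 of the 10 beside 8.77% of all genes. The Ube2g2 call was lost without Empty replicate 1 or 2 or TSH-MMI replicate 1 or 3, that of Eloc without Empty replicate 1 or TSH-MMI replicate 2 or 3, and that of Usp20 without any 1 library but TSH-MMI replicate 3.

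Among membrane carriers of thyroid hormone, Slc16a10 (MCT10) fell with TSH at 1 week (log2 fold change -0.64, SE 0.12, edgeR adjusted p = 0.00269) and at 4 weeks (-0.45, SE 0.11, edgeR adjusted p = 0.0183). With TSH-MMI, Slc7a5, an amino acid transporter subunit that also carries thyroid hormone, fell at 4 weeks (-0.54, edgeR adjusted p = 0.0434). The Slc16a10 call at 1 week held without any 1 library. That at 4 weeks was lost without Empty replicate 3 or TSH replicate 1, and that of Slc7a5 without any 1 library but TSH-MMI replicate 3.

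Among 17 receptors and response genes of thyroid hormone, 1 rose and 1 fell with TSH at 1 week, shares below those of all genes (14.8% and 9.34%). Thra, the receptor alpha gene, fell (-0.63, SE 0.07, edgeR adjusted p = 0.000156), and stood at 26.6 to 29.1 FPKM in Empty and 17.6 to 20.5 FPKM in TSH. Hr, a corepressor induced by thyroid hormone in rodent brain, rose (0.92, SE 0.12, edgeR adjusted p = 0.000261), and again at 4 weeks with TSH (0.84, SE 0.14, edgeR adjusted p = 0.00139) and with TSH-MMI (0.69, SE 0.14, edgeR adjusted p = 0.00411). With TSH-MMI, 2 of the 17 rose and 3 fell at 1 week, beside 13.6% and 7.97% of all genes. At 4 weeks 3 rose and 2 fell, beside 8.77% and 5.97%. Thra and Hr were among those called at 1 week, and each held in all 16 alternative runs. Thra was also called with TSH-MMI at 4 weeks, a call lost in 5 of 16 runs. Stard4, a cholesterol carrier, rose with TSH-MMI at 1 week (0.62, SE 0.16, edgeR adjusted p = 0.0169) and at 4 weeks (0.84, SE 0.16, edgeR adjusted p = 0.00347), and with TSH at 4 weeks (0.56, SE 0.16, edgeR adjusted p = 0.0358). The call with TSH-MMI at 1 week was lost without Empty replicate 1 or 2 or TSH-MMI replicate 1 or 3, that with TSH-MMI at 4 weeks with the skeletal muscle covariate (adjusted p = 0.191), and that with TSH without any 1 library but Empty replicate 2. Rxrg, a retinoid X receptor, fell at 4 weeks with TSH (-1.59, edgeR adjusted p = 0.00055), with TSH-MMI (-1.71, edgeR adjusted p = 0.000313) and with thiamazole alone (-1.53, edgeR adjusted p = 0.00782). The Empty libraries of 4 weeks that these 3 comparisons share are those with the high skeletal muscle markers, and with these markers as a covariate the Rxrg calls with TSH and TSH-MMI held while that with thiamazole alone was lost, as it was without Empty-MMI replicate 1.

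Of 19 genes of the cAMP response, 6 rose and 1 fell with TSH at 1 week, with a median log2 fold change of 0.17, beside 14.8% higher, 9.34% lower and a median of -0.0047 over all genes. Pde7b, a cAMP phosphodiesterase, rose (0.86, SE 0.08, edgeR adjusted p = 3.89e-05), as did the transcription factors Fos (1.13, SE 0.17, edgeR adjusted p = 0.000822) and Crem (0.69, SE 0.11, edgeR adjusted p = 0.00128). Rgs2 fell (-0.47, SE 0.13, edgeR adjusted p = 0.0245). With TSH-MMI at 1 week 5 rose and 2 fell, beside 13.6% and 7.97% of all genes, Pde7b and Crem among the former (0.60 and 0.70, edgeR adjusted p = 0.000542 and 0.00151). At 4 weeks 1 rose with TSH, Junb (0.55, SE 0.12, edgeR adjusted p = 0.00869), and 1 fell, Nr4a1 (-0.83, SE 0.25, edgeR adjusted p = 0.0432), beside 8.52% and 5.61% of all genes. With TSH-MMI at 4 weeks 3 rose and none fell, beside 8.77% and 5.97%, namely Crem (0.62, edgeR adjusted p = 0.0185), the nuclear receptor Nr4a2 (0.63, edgeR adjusted p = 0.0215) and Junb (0.41, edgeR adjusted p = 0.0365). Pde7b and Crem were at 4 weeks at 6.65 to 7.98 and 4.24 to 5.11 FPKM in TSH, against 6.35 to 7.67 and 4.18 to 4.53 FPKM in Empty, and Crem was at 9.08, 7.33 and 4.73 FPKM in TSH-MMI. The calls for Pde7b, Fos and Crem with TSH at 1 week held without any 1 library, while that of Rgs2 was lost without Empty or TSH replicate 2 or 3, and that of Nr4a1 at 4 weeks without any 1 library but TSH replicate 1. The Junb call with TSH at 4 weeks was lost with limma and with the skeletal muscle covariate. Of the calls with TSH-MMI at 4 weeks, that of Crem was lost without Empty replicate 2 or TSH-MMI replicate 1 or 2, that of Nr4a2 without Empty replicate 1 or 2 or TSH-MMI replicate 1 or 3, and that of Junb without any 1 library but Empty replicate 2.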

How the data were processed

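RNA from 21 thyroid libraries was prepared with a stranded poly(A) kit, per the labels' protocols. Gene tables of read counts, FPKM and TPM were deposited by the authors, 1 for each week. Tools named in the submitters' processing notes are HISAT2 2.1.0 and StringTie 2.1.3b, with Trimmomatic 0.38 and FastQC 0.11.7, and the build is mm10. Which step each tool did, the strand setting of the counting and the annotation are not given here, so reads of a gene and its antisense partner may not be separable. The deposited TPM values were not used. Depth was 32244842 to 51886245 counts per library.

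For the tests, counts entered edgeR 4.0.16 (R 4.3.3, quasi-likelihood F test with robust fits, TMM scaling, filterByExpr with a minimum count of 10, Benjamini-Hochberg adjustment over all genes tested, threshold 0.05), after tests on simulated counts. Each week was fitted apart, and all 21 libraries together for differences between weeks. The deposited FPKM were used for levels and, as log2(FPKM + 0.1), for the exact permutation test. DESeq2 1.42.0 and limma 3.58.1 served as alternatives. Intervals are at 95%, and counting intervals cover counting error only. No 2 libraries of a group agreed within sampling noise (chi-square per degree of freedom of 11.7 or more). Over all genes tested, the median log2 fold change in each comparison was close to 0.

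Sequences come from RefSeq (promoters, GRCm38.p6, all 3 members matched) and GENCODE vM21 (coding windows). The members, gene lists and markers were chosen with earlier results of these data known. All members are named. Genes of a list were named from its up to 4 called genes with the smallest p, and not all of these are given for each comparison. Where none was called, the gene with the smallest p could be named. Of neighbours, those called were named. The 5 genes most like each member had a mean CPM of at least 1, with predicted genes left out. Alternatives were other scalings, filters, tools, a replicate block, a skeletal muscle covariate, only the groups compared, no highly abundant genes, and leaving out libraries. Some results for the carriers of thyroid hormone are not reported here.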

Additional observations from a re-analysis of the deposited data

How the results depend on the processing

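Of the 13 calls for Dio1, Dio2 and Dio3, none reversed under an alternative, and 199 of 208 recomputed values stayed past the threshold. The 9 losses were as follows. Leaving out 1 library at a time, log2 fold changes ran from 1.30 to 2.04 for Dio3 in TSH-MMI against Empty at 1 week, from 0.37 to 0.52 for Dio1 in TSH-MMI against Empty at 4 weeks, and from 1.22 to 1.96 for Dio2 in TSH-MMI against Empty-MMI. With the muscle covariate, TSH-MMI against Empty at 4 weeks gave 0.40 for Dio1 and 1.21 for Dio2, and without both libraries with thymocyte transcripts Dio3 gave 1.90 in TSH-MMI against Empty at 1 week. For TSH-MMI against Empty-MMI, calls were gained by DESeq2 for Dio1 (0.32) and Dio3 (1.57), by limma for Dio3 (0.32 on log2(FPKM + 1) and 1.18 on log2(FPKM + 0.1)), and for Dio1 by leaving out TSH-MMI replicate 3 (0.26 to 0.41 over the libraries left out). Reversals were all of values that did not pass. On log2(FPKM + 1) they were Dio1 in TSH against Empty at 4 weeks (-0.050), the interaction for Dio2 (0.035) and Dio3 (0.063) and the change of the TSH effect for Dio3 (-0.087). On log2(FPKM + 0.1) they were -0.051 for Dio1, 0.13 for the Dio2 interaction and -0.0077 for the change in Dio3. Without both libraries with thymocyte transcripts the change of the TSH-MMI effect on Dio2 was -0.20, and without both low in parathyroid transcripts, a choice made after seeing the data, Dio1 in TSH against Empty-MMI was 0.0032 and the Dio2 interaction 0.026. Leaving out 1 library, the ranges that crossed 0 were -0.0027 to 0.11 for Dio1 in TSH against Empty at 4 weeks, -0.11 to 0.0033 for Dio1 in TSH against Empty-MMI, -0.52 to 0.21 for Dio2 in Empty-MMI against Empty, -0.39 to 0.34 for its interaction, -0.48 to 0.0070 for its change of the TSH effect and -0.034 to 0.44 for its change of the TSH-MMI effect. Dio2 beyond Dio1 reversed in TSH-MMI against Empty at 1 week with a pseudocount of 1 (-0.11) and in Empty-MMI against Empty over single libraries (-0.56 to 0.050). The highest Dio1 group mean was 1.68 times the lowest in CPM and 2.04 times in FPKM. The causes were not tested. Same-numbered libraries of different groups had correlated deviations over 0.1 in 2 of 9 pairs at 1 week and 4 of 18 at 4 weeks, so the numbers were not taken as pairs; with the replicate block, Dio2 in TSH against Empty at 1 week gave 1.87 and no deiodinase call changed. Of 61 calls for other named genes, 23 held under each alternative run, among them Lrrc42, Dlk1, Thra, Hr, Rpl30, Pde7b and Crem at 1 week and Rxrg and Hr with TSH and TSH-MMI at 4 weeks, and 38 were lost in at least 1, none reversing. DESeq2 gave no adjusted p for Dio2 and Dio3 in TSH-MMI against TSH at 1 week and for Dio3 at 4 weeks, and Dio3 in Empty-MMI against Empty fell under the filter with those groups alone. Depth limits Dio3, at 2 to 42 counts a library.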
